A study of Mus musculus with 6 samples.

Results

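The NR4A orphan nuclear receptors are encoded in the mouse by Nr4a1 (the protein Nur77), Nr4a2 (Nurr1) and Nr4a3 (Nor-1). These 3 genes, of 55416 in the count tables, were taken by symbol through their Ensembl IDs, and all 3 passed the low-count filter. RNA was sequenced from CD3+ T cells of the spleens of wild-type C57BL/6 mice that had received a graft. There were 3 libraries from allograft recipients (donor genetically different from the recipient) and 3 from isograft recipients (donor genetically identical), and all the cells were kept in serum-containing culture medium before RNA extraction. The sources used here do not give the grafted organ, the donor strain, the age of the mice, the day of sampling or how long the cells were cultured. They also leave unsaid whether each library is its own mouse, so every p-value here reflects only library-to-library spread, some of which may be technical.

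NR4A proteins bind DNA as single molecules at an element called the NBRE, or as pairs, and act without a known hormone, because bulky side chains fill the pocket in which other nuclear receptors hold their ligand. Their activity is therefore set mainly by how much of them is made. In T cells they are immediate early genes: signalling from the T cell receptor through calcium, calcineurin and the MEF2 and CREB families of transcription factors switches their transcription on within a short time, and Nur77 reporters are widely used to read receptor signalling in mice. Their known roles include the death of self-reactive thymocytes, the upkeep of regulatory T cells and the restraint of effector function in chronically stimulated T cells. B cells induce the same genes after signalling from the B cell receptor.

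The windows around the RefSeq start sites of the 3 genes are shown because the members moved together and because TGACG, the short form of the cyclic AMP response element bound by CREB, was found in each of them. Each window runs 300 bases from 250 before the start site, on the strand of the gene, and is given 5′ to 3′ in RefSeq's coordinates on GRCm38.p6, with TGACG or its reverse complement CGTCA in capitals. Nr4a1 lies at chr15:101266596-101266895 on the plus strand, Nr4a2 at chr2:57123954-57124253 on the minus strand, and Nr4a3 at chr4:48045055-48045354 on the plus strand.
Nr4a1: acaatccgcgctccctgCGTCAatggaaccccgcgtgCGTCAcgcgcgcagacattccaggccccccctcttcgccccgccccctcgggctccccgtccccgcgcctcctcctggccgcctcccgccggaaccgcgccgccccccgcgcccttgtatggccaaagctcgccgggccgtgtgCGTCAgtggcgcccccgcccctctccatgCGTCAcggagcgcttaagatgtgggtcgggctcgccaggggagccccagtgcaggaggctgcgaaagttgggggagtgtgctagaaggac
Nr4a2: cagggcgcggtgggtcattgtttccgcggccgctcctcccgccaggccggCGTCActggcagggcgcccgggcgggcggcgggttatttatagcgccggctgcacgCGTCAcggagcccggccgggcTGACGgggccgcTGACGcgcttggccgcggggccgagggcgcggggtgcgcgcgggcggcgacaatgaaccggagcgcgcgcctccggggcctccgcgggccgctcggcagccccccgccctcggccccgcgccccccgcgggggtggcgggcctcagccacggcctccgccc
Nr4a3: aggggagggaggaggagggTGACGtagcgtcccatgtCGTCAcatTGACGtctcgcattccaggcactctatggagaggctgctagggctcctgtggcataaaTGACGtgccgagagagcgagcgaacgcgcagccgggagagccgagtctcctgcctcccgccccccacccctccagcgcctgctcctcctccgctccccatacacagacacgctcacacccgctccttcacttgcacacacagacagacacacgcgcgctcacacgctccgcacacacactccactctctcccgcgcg
Both strands were searched. The short element occurred 4 times in the Nr4a1 window, 4 times in the Nr4a2 window and 4 times in the Nr4a3 window, with no match overlapping another, and all of the matches lay before the start site. Of 32817 RefSeq windows of that length, 20.8% held the short element at least once and 0.232% held it at least 4 times. The windows of Nr4a1, Nr4a2 and Nr4a3 had 72.3%, 81.7% and 64.7% G and C bases, against a median of 52.7% over all windows, and the short element itself contains a CG pair. The full palindrome TGACGTCA (in 1.79% of all windows), which contains the short element on each strand, had no match in the 3 windows. The NBRE AAAGGTCA (1.51%) and the AP-1 element TGANTCA (7.81%) had none either. In the forms searched, the CArG box of serum response factor (1.63%) and the MEF2 site (0.558%) also had none. Looser forms of the AP-1 element, the CArG box and the MEF2 site were not searched. All 4 short elements in the Nr4a1 window lie within TGCGTCA, a near match to the AP-1 form searched. That window also holds CCTTGTATGG, a near match to the CArG form searched. The Nr4a2 window holds a stretch that fits a looser MEF2 consensus. The search therefore does not show that the windows lack AP-1, CArG or MEF2 sites. All such matches describe letters in the windows, and binding was not measured.

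In the annotation of the files, on GRCm39, Nr4a1 (ENSMUSG00000023034) lies on chromosome 15 from 101152150 to 101172676 with 3509 exonic bases. Nr4a2 (ENSMUSG00000026826) lies on chromosome 2 from 56996842 to 57014015 with 4059 exonic bases, and Nr4a3 (ENSMUSG00000028341) on chromosome 4 from 48045153 to 48086447 with 5987 exonic bases. No other annotated gene overlapped the span of any of the 3, on either strand, so the unstranded counting does not mix them with an antisense neighbour.

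Library totals ran from 30078504 to 34123777 counts in the allograft group and from 30066137 to 37821738 in the isograft group. All 12 markers of T cells fixed for the check had counts in every library and summed to 1231 to 1366 CPM (counts relative to library size, adjusted between libraries by the trimmed mean of M values, TMM) in allograft libraries and 1824 to 1891 CPM in isograft libraries. All 12 markers of B cells were present too, at sums of 2387 to 2574 CPM in allograft and 2418 to 2656 CPM in isograft libraries, not corrected for gene length. The label CD3+ T cells therefore does not describe all of the RNA, and NR4A transcripts cannot be assigned to T cells or B cells from these counts. In bulk RNA, fewer cells of a type and less RNA per cell cannot be told apart.

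Transcripts of all 3 NR4A genes were 8.39 to 9.93 times as abundant in the allograft libraries as in the isograft libraries, and the groups were far apart for each gene. Nr4a1, the member most used as a reporter of receptor signalling, had 22929, 18525 and 17912 counts in allograft libraries 1, 2 and 3, against 2141, 2926 and 2097 counts in isograft libraries 1, 2 and 3. After scaling these were 734.6, 638.9 and 636.8 CPM in allograft and 64.7, 72.2 and 65.4 CPM in isograft libraries. The lowest allograft library stood 8.82 times above the highest isograft library. Nr4a1 averaged 670.1 ± 55.9 CPM in allograft and 67.4 ± 4.12 CPM in isograft libraries (SD, n = 3 each), a log2 fold change of 3.31 ± 0.08 (SE), or 9.93-fold, with an adjusted p of 2.4e-16 by edgeR's quasi-likelihood test with Benjamini-Hochberg adjustment over 14926 genes.

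Nr4a2, the member best known for its part in dopamine neurons and in regulatory T cells together with its relatives, was the lowest of the 3. Its counts were 5711, 4617 and 6154 in allograft libraries 1, 2 and 3 and 623, 833 and 608 in isograft libraries 1, 2 and 3. On the scaled measure it had 183, 159.2 and 218.8 CPM in allograft and 18.8, 20.5 and 18.96 CPM in isograft libraries. The groups did not overlap, and the allograft libraries were more spread than the isograft libraries, with allograft library 3 the highest and allograft library 2 the lowest. The means were 187 ± 29.98 CPM in allograft and 19.4 ± 0.953 CPM in isograft libraries (SD, n = 3 each), a log2 fold change of 3.26 ± 0.11 (SE), or 9.61-fold (edgeR adjusted p = 9.5e-14).

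Nr4a3, which acts redundantly with Nr4a1 in thymocyte death, had 15941, 14996 and 15116 counts in allograft libraries 1, 2 and 3 and 1952, 2598 and 2036 counts in isograft libraries 1, 2 and 3. Scaled, these were 510.7, 517.2 and 537.4 CPM in allograft and 59.02, 64.1 and 63.5 CPM in isograft libraries. It was the most even of the 3 among the allograft libraries, where its SD was 2.67% of the mean, against 8.34% for Nr4a1 and 16.03% for Nr4a2. The means were 521.7 ± 13.9 CPM in allograft and 62.2 ± 2.77 CPM in isograft libraries (SD, n = 3 each), a log2 fold change of 3.07 ± 0.07 (SE), or 8.39-fold (edgeR adjusted p = 1.3e-16).

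**Figure D1:**
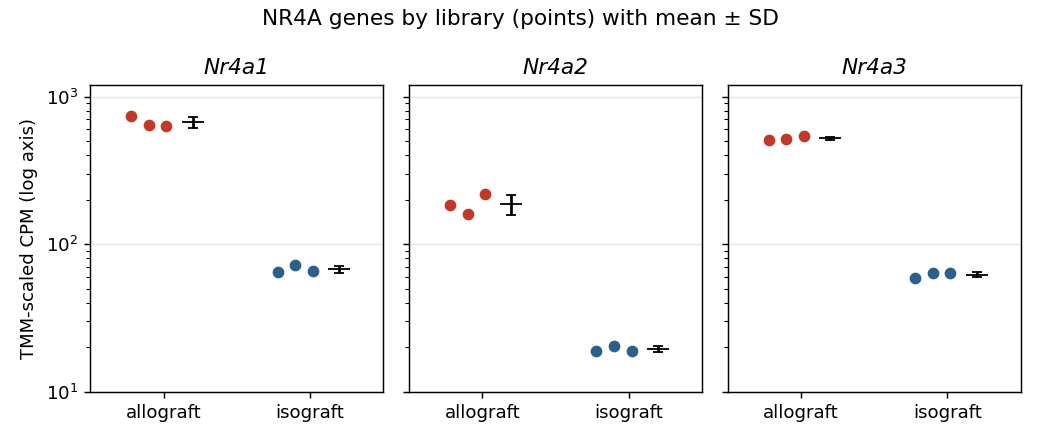
TMM-scaled CPM on a log axis for Nr4a1, Nr4a2 and Nr4a3, with 1 point per library, allograft left of isograft, and the black mark at the right of each group giving mean ± SD (n = 3). Every allograft library lies above every isograft library for each gene, by at least 7.75 times (Nr4a2).

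A difference in this direction was common in these data: 57.8% of the genes tested passed an adjusted p of 0.05 in either direction and 28.7% rose. For 63.3% the groups did not overlap, and for 31.3% every allograft library was above every isograft library. By log2 fold change Nr4a1 stood 69th, Nr4a2 73rd and Nr4a3 89th from the top of 14926 genes. Of the genes with a larger log2 fold change than Nr4a1, 1 also had a higher mean CPM over the 6 libraries, the activation antigen gene Cd69. The corresponding numbers were 5 for Nr4a2 (Cd69, Egr1, Il2ra, Nr4a1 and Slamf1) and 2 for Nr4a3 (Cd69 and Nr4a1). With libraries scaled by total counts in place of TMM, 2973 of all genes rose and 6093 fell, against 4283 and 4349 with TMM.

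**Figure D2:**
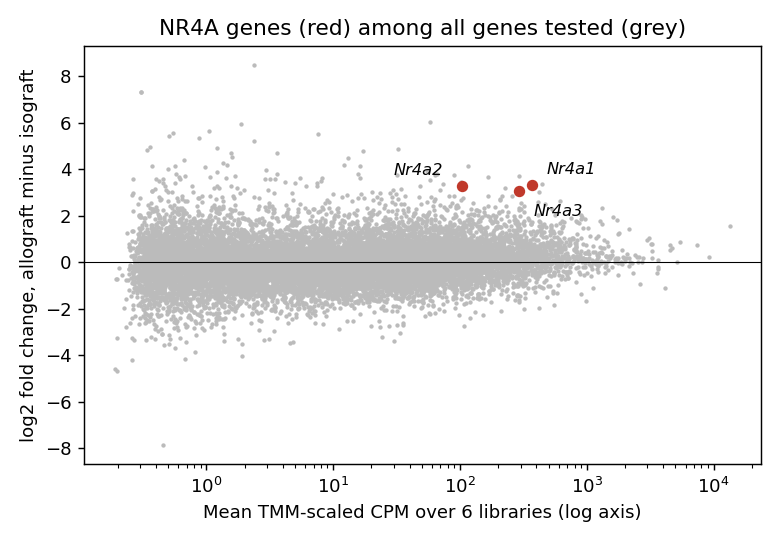
The log2 fold change of allograft minus isograft against the mean TMM-scaled CPM over the 6 libraries, on a log axis, for the 14926 genes tested (grey) with the 3 NR4A genes in red. The red points lie at 3.07 to 3.31 on the vertical axis, and 1 gene, Cd69, lies both above and to the right of Nr4a1.

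Set per length of exon as TPM (length-scaled transcript abundance), the order of the members was the same in both groups: Nr4a1 was highest, Nr4a3 second and Nr4a2 lowest. Nr4a1 stood at 619.1 ± 38.5 TPM in allograft and 73.5 ± 4.17 TPM in isograft libraries, Nr4a3 at 283 ± 13.8 TPM in allograft and 39.7 ± 1.73 TPM in isograft libraries, and Nr4a2 at 149.7 ± 26.2 TPM in allograft and 18.3 ± 0.819 TPM in isograft libraries (SD, n = 3 each). No member's range touched that of its neighbour in either group. Summed over the 3 genes, the family reached 1052 ± 44 TPM in allograft and 131.5 ± 6.18 TPM in isograft libraries, a ratio of 7.998 on a scale that carries no TMM factor. In allograft libraries Nr4a1 exceeded 98.3% of the genes tested in mean TPM, Nr4a3 95.8% and Nr4a2 91.97%. In isograft libraries those shares were 83.9%, 73.7% and 57.1%, so the members were above the middle of the genes tested there too.

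The share of each member in the pool was close in both groups. Nr4a1 made up 58.9% ± 2.92 of the family's TPM in allograft and 55.9% ± 0.836 in isograft libraries, Nr4a3 26.9% ± 1.59 in allograft and 30.2% ± 0.942 in isograft libraries, and Nr4a2 14.2% ± 2.08 in allograft and 13.9% ± 0.156 in isograft libraries (SD, n = 3 each). The ratio of Nr4a1 to Nr4a3 within a library was 2.45, 2.11 and 2.02 in allograft libraries 1, 2 and 3 and 1.87, 1.92 and 1.76 in isograft libraries 1, 2 and 3. This ratio did not overlap between the groups and differed by 0.24 on the log2 scale, with p = 0.10 in a two-sided exact permutation test, the smallest p that 3 libraries against 3 allow, and 0.30 after adjustment over the 3 pairs of members. The ratio of Nr4a2 to Nr4a3 overlapped between the groups (difference of 0.19 on the log2 scale, exact permutation p = 0.30, adjusted 0.45), and so did that of Nr4a1 to Nr4a2 (0.06, exact permutation p = 1.0, adjusted 1.0). That last difference changed sign without allograft library 1 (-0.0203) or allograft library 2 (-0.0199), and was 0.212 without allograft library 3. A ratio within a library does not depend on how libraries are scaled. The ratio of Nr4a1 to Nr4a2 was 4.64, 4.64 and 3.37 in allograft libraries 1, 2 and 3 and 3.98, 4.06 and 3.99 in isograft libraries 1, 2 and 3. It was lowest in allograft library 3, where Nr4a2 was highest.

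**Figure D3:**
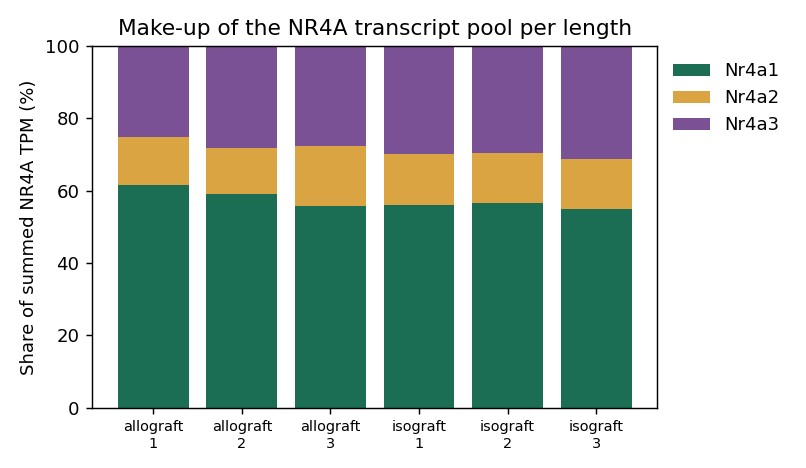
Share of the summed NR4A TPM held by each member, in percent, for each allograft library and then each isograft library. Nr4a1 holds 55.0% to 61.6%, Nr4a3 25.1% to 31.3% and Nr4a2 12.7% to 16.6% of the pool over the 6 libraries.

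Nuclear receptors form a family of 49 genes in the mouse, most of which respond to hormones, vitamins, fatty acids or sterols. By mean TPM the 3 NR4A genes had ranks 1 to 3 in the allograft libraries and held 77.2% of the family's summed TPM, against 24.6% in isograft libraries. In isograft libraries Nr4a1 had rank 2, Nr4a3 rank 5 and Nr4a2 rank 8. Nr1h2, the oxysterol receptor LXR beta, named here because of its values, had rank 4 in allograft libraries at 133.1 ± 4.57 TPM and rank 1 in isograft libraries at 159.2 ± 1.66 TPM (SD, n = 3 each). The lowest allograft value of Nr4a2, 127.6 TPM in library 2, was below the lowest of Nr1h2, 128.5 TPM, so the order of these 2 genes did not hold in every allograft library. With TMM scaling the log2 fold change of Nr1h2 was -0.02 ± 0.07 (SE) and did not pass (edgeR adjusted p = 0.80).

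Of the 49 genes, 26 passed the low-count filter. Among these 8 rose and 9 fell, shares of 30.8% and 34.6% against 28.7% and 29.1% of all genes tested, and the median log2 fold change was -0.03 against -0.01. With total counts 6 rose and 12 fell. The 3 NR4A genes had the highest log2 fold changes of the 26, and the next highest was 1.65. The falls with the smallest p were those of Thra, a thyroid hormone receptor (-2.86 ± 0.18), and Rarg, a retinoic acid receptor (-1.42 ± 0.14; log2 fold change ± SE, edgeR adjusted p at most 2.6e-08). Thra had 1.73, 3.14 and 3.16 CPM in allograft libraries 1, 2 and 3 and 16.96, 20.6 and 20.5 CPM in isograft libraries 1, 2 and 3.

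**Figure D4:**
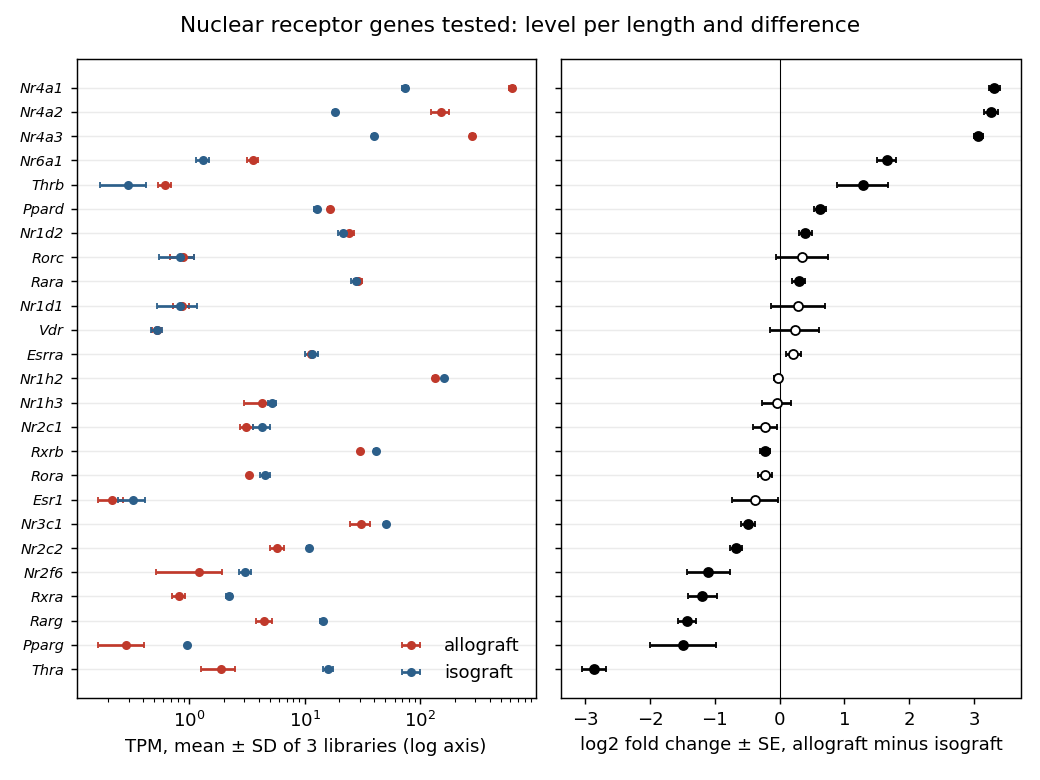
Nuclear receptor genes tested, 25 of the 26, ordered by log2 fold change. The left panel gives TPM on a log axis as mean ± SD of 3 libraries (allograft red, isograft blue). The right panel gives the log2 fold change of allograft minus isograft ± SE, filled where the adjusted p was under 0.05. The NR4A genes occupy the top 3 lines, at 3.07 to 3.31, and Thra the bottom line at -2.86.

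The NR4A genes are 1 branch of the early response to antigen receptor signalling, and most other genes of a list of such genes were higher as well. That list, like the other lists here, was chosen with earlier results of these data known. Of 26 early genes 25 were tested, of which 23 rose and none fell, 92% against the 28.7% of all genes, with a median log2 fold change of 1.79. Jund (0.28 ± 0.12, edgeR adjusted p = 0.054) and Dusp1 (-0.05 ± 0.13, adjusted p = 0.79) did not pass. The 3 with the smallest p were Cd69, an early activation antigen (3.36 ± 0.08), Irf4, a transcription factor induced in proportion to receptor signal (2.58 ± 0.07), and Egr2, a zinc finger factor that responds to calcium signalling (2.78 ± 0.09). Cd69 had 772.5, 837.5 and 800.6 CPM in allograft libraries and 83.0, 77.9 and 73.4 CPM in isograft libraries. Egr1, a zinc finger factor and close relative of Egr2 that was chosen after its values were seen, had the largest log2 fold change of the list, 3.66 ± 0.12, with 372.3, 287.9 and 272.1 CPM in allograft libraries and 23.6, 27.2 and 22.9 CPM in isograft libraries. The NR4A values thus lay in the upper range of this list, which ran from -0.05 to 3.66.

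Regulators that act upstream of the NR4A genes included members that rose and members that fell. Of 25 listed genes, among them calcineurin subunits, NFAT, MEF2 and CREB family factors, class II histone deacetylases and kinases, 7 rose and 10 fell, 28% and 40% against 28.7% and 29.1% of all genes tested. Nfatc1, an NFAT factor that is itself induced by calcineurin signalling, rose by 1.04 ± 0.09 (log2 fold change ± SE), with 159.2, 134.8 and 125.1 CPM in allograft and 60.8, 74.3 and 68.2 CPM in isograft libraries. Crem (0.67 ± 0.08) and Atf1 (0.62 ± 0.08), relatives of CREB, rose by less. Hdac5, a class II deacetylase that represses MEF2 targets, fell by 1.35 ± 0.08, while Mef2c (-0.66 ± 0.07), a MEF2 factor prominent in B cells, and Nfatc3 (-0.68 ± 0.07) fell too. edgeR's adjusted p was at most 2.2e-06 for these 6 genes. With libraries scaled by total counts in place of TMM, 4 of the list rose and 14 fell, and with library sizes from the T cell markers 18 rose.

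Partners and coregulators gave a similar picture. Of 18 listed genes 17 were tested, 5 rose and 7 fell, 29.4% and 41.2% against 28.7% and 29.1%, and with total counts 1 rose and 11 fell. With library sizes from the T cell markers 12 rose. Without allograft library 1, isograft library 1 or isograft library 2, 3 rose. The rise with the smallest p was that of Bcl2, a survival protein that Nur77 can bind at mitochondria (1.06 ± 0.08, edgeR adjusted p = 9.0e-10). The rises of the kinase genes Akt2 (0.26 ± 0.08) and Rps6ka3 (0.23 ± 0.08) were small, and total counts left neither past the threshold (adjusted p = 0.64 and 0.91). The coactivator genes Ncoa1 (-0.70 ± 0.10), Crebbp (-0.46 ± 0.07) and Ncoa2 (-0.46 ± 0.07) fell (edgeR adjusted p at most 2.5e-05). The retinoid X receptors with which Nr4a1 and Nr4a2 can pair fell, with log2 fold changes of -1.19 ± 0.22 for Rxra and -0.23 ± 0.08 for Rxrb (edgeR adjusted p = 0.00011 and 0.020), and Rxrg was not tested for lack of counts.

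Lists of genes placed downstream of NR4A factors in mouse T cells were drawn up from general knowledge, with earlier results of these data known. They had members that rose whichever direction the list names. Of 17 genes reported as raised by NR4A factors 11 rose and 2 fell, 64.7% and 11.8% against 28.7% and 29.1% of all genes, with a median log2 fold change of 0.61. Il2ra, the interleukin 2 receptor alpha chain, rose by 3.68 ± 0.08, Pdcd1, the inhibitory receptor PD-1, by 1.62 ± 0.15, and Bcl2l11, the death protein Bim, by 0.61 ± 0.08 (log2 fold change ± SE, edgeR adjusted p at most 1.5e-06). Pdcd1 stayed low, at 21.6, 17.0 and 23.5 CPM in allograft and 5.50, 6.46 and 8.26 CPM in isograft libraries. Ikzf4 (-0.63 ± 0.14) and Tigit (-0.34 ± 0.14), genes of regulatory T cells and inhibitory signalling, fell (adjusted p = 0.00056 and 0.044).

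Of 8 genes reported as lowered by NR4A factors 6 were tested and all 6 rose, against 28.7% of all genes tested, with a median log2 fold change of 2.98. With total counts 5 rose, and without isograft library 1 also 5. Il4 and Il17a had too few counts. Irf4, already named, was among them. Gzmb, the protease granzyme B, rose by 2.85 ± 0.09 and Ifng, the cytokine interferon gamma, by 4.69 ± 0.29 (edgeR adjusted p at most 5.6e-11). Ifng had 5.80, 7.0 and 8.07 CPM in allograft libraries and 0.181, 0.197 and 0.437 CPM in isograft libraries, so its fold rests on few counts in the isograft group. Il2 was lower still, at means of 1.97 CPM in allograft and 0.152 CPM in isograft libraries. Tnf (3.11 ± 0.48) was uneven in the isograft group, at 24.3, 9.52 and 9.35 CPM in libraries 1, 2 and 3. The rise of Runx3, a CD8 lineage factor (0.40 ± 0.13, adjusted p = 0.025), was lost when total counts set the scale (0.18, adjusted p = 0.20).

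**Figure D5:**
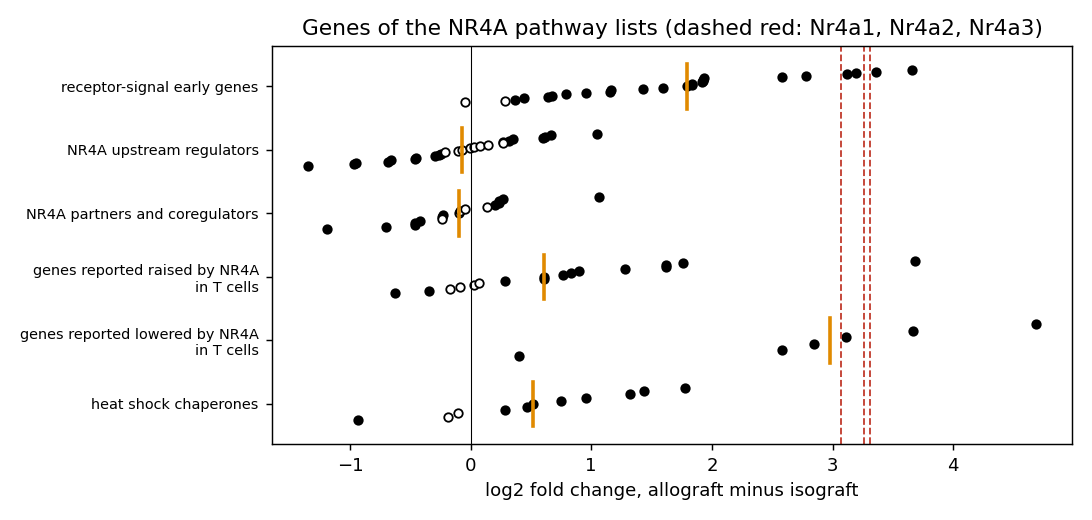
Log2 fold change of allograft minus isograft for each tested gene of the pathway lists, 1 point per gene, filled where the adjusted p was under 0.05, with the list median as an orange bar and the 3 NR4A genes as dashed red lines. The medians are 1.79 for early genes, -0.07 for upstream regulators, -0.09 for partners, 0.61 and 2.98 for the genes reported as raised and as lowered by NR4A factors, and 0.52 for heat shock chaperones.

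The genes whose profiles over the 6 libraries were most like those of the members were sought among 8813 named genes with a mean of at least 5 CPM, by the root mean square difference of log2 CPM after each gene was centred on its own mean. For Nr4a1 these were Myc, a growth-promoting transcription factor (difference of 0.11), Bcl2l1, the survival protein Bcl-xL (0.11), and Cd69 (0.13). Nr4a3 came first for Nr4a2 (0.15), followed by Lipg, an endothelial-type lipase (0.15), and Nr4a1 (0.16). For Nr4a3 they were Ccnd2, the cell cycle gene cyclin D2 (0.10), Gzmb (0.13) and Slc29a1, a nucleoside transporter (0.13), with Nr4a2 and Nr4a1 in places 10 and 11. Myc had 457.9, 421.4 and 352.8 CPM in allograft libraries 1, 2 and 3 and 41.5, 46.7 and 46.2 CPM in isograft libraries 1, 2 and 3, so that, like Nr4a1, it was highest in allograft library 1. Each of these profiles contains the difference between the groups.

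Other measures are set beside the NR4A values here, and some of them overlapped between the groups. The summed B cell markers were 0.969 times as high in allograft as in isograft libraries and the summed T cell markers 0.703 times. With library sizes taken from the B cell markers the log2 fold changes of Nr4a1, Nr4a2 and Nr4a3 were 3.36, 3.31 and 3.11, and from the T cell markers 3.82, 3.77 and 3.58. Such a rescaling shifts all genes by about the same amount, and relative to the median of all genes the values were 3.33, 3.28 and 3.08 with either marker set. Of the 12 B cell markers 4 rose and 6 fell, and of the 12 T cell markers 3 rose and 7 fell, where 28.7% of all genes tested rose and 29.1% fell. Among the B cell markers Fcer2a, the IgE receptor CD23, stood apart and is named here only because of its values, with 390, 392.2 and 352 CPM in allograft and 52.0, 53.9 and 52.6 CPM in isograft libraries (log2 fold change of 2.84 ± 0.07). It is part of the B cell sum and of the library sizes set from it, and raises both in allograft relative to isograft libraries. Without it the ratio of 0.969 would be lower, and the overlap of the B cell sums between the groups may rest on it. The sum without Fcer2a was not computed. The B cell surface gene Ms4a1 had 140.3, 144 and 144.5 CPM in allograft and 128, 119.7 and 126.1 CPM in isograft libraries. Its log2 fold change was 0.20 ± 0.07 (SE) with TMM and -0.02 with total counts (edgeR adjusted p = 0.017 and 0.80). The T cell gene Cd3e had 93.5, 71.5 and 72.4 CPM in allograft and 119.2, 123.6 and 124.9 CPM in isograft libraries. These genes do not stand for their lists. Fcer2a and Ms4a1 rose where 6 B cell markers fell, and Cd3e fell where 3 T cell markers rose. The part of B cells in the NR4A difference was not tested. Monocyte and macrophage markers, of which some subsets are rich in Nr4a1, summed to 76.5 to 93.2 CPM in allograft and 101.8 to 106 CPM in isograft libraries, and 1 of these 10 markers rose and 3 fell. Dendritic cell markers summed to 78.8 to 84.8 CPM in allograft and 41.1 to 44.0 CPM in isograft libraries. Of 8 such markers 6 were tested, 1 rose and 1 fell, and the gene that rose held most of the allograft sum. The rise was that of Zbtb46, with 59.0 ± 3.33 CPM in allograft and 13.6 ± 0.528 CPM in isograft libraries, and the fall that of Ccr9, with 4.82 ± 0.930 CPM in allograft and 9.63 ± 0.525 CPM in isograft libraries (SD, n = 3 each). NK cell markers summed to 15.9 to 19.6 CPM in allograft and 15.0 to 18.0 CPM in isograft libraries, and neutrophil markers to 7.10 to 10.2 CPM in allograft and 10.2 to 12.03 CPM in isograft libraries. Erythroid and platelet markers summed to 2.96 to 4.51 CPM in allograft and 4.27 to 5.30 CPM in isograft libraries, with the platelet gene Ppbp at 0 in every library. Of 6 NK cell markers tested none passed, of 4 neutrophil markers tested 1 fell, and of 2 erythroid and platelet markers tested 1 fell.

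NR4A genes also respond to handling stress, and of 12 heat shock chaperone genes 11 were tested, 8 rose and 1 fell (72.7% and 9.09%, against 28.7% and 29.1% of all genes). The 3 rises with the smallest p were Hspd1 (1.78 ± 0.07), Hsp90aa1 (1.44 ± 0.08) and Hsph1 (1.32 ± 0.08; edgeR adjusted p at most 1.3e-11), and Bag3 fell by 0.93 ± 0.16. Hspd1 and Hsp90aa1 have processed copies elsewhere in the genome, so their counts are uncertain. The stress-inducible Hspa1a (-0.19 ± 0.31, adjusted p = 0.63) and Hspa1b (-0.11 ± 0.20, adjusted p = 0.68), which have near-identical sequences and were at 1.14 and 3.10 CPM in allograft and 1.30 and 3.32 CPM in isograft libraries, did not pass. The part of handling or culture in the NR4A difference was not tested.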

How the data were processed

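The authors deposited 1 table of counts per library. Per the file headers, read pairs over exons were counted per Ensembl gene with featureCounts 1.6.0 from alignment files whose names contain hisat, without options for strand or for multi-mapped reads, which by default are left out. The annotation in the headers is Ensembl release 104 on GRCm39, although GRCm38 and mm10 stand in the submitters' processing notes. Among 52044 genes that keep their chromosome between builds, 46545, Nr4a1 and Nr4a2 included, have spans that do not overlap between builds, and these hold 84.38% of the counts, so coordinates are given as GRCm39. Per the labels' protocols, TRIzol served for RNA extraction and a SMARTER mRNA kit for library preparation.

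Symbols were matched by Ensembl ID (93.99% of 55416 genes). edgeR's filterByExpr left 14926 genes, which held 99.92% of all counts. After TMM scaling, allograft was compared with isograft in edgeR's quasi-likelihood framework (robust), with p-values adjusted by Benjamini-Hochberg and called under 0.05. The SE was taken as log2 fold change over root F. TPM used the exonic length in the files. The procedure was tested on simulated data in which few genes changed, as many up as down. In these data most genes changed, so that simulation does not bear on the choice of scaling. Within groups the chi-square per degree of freedom between libraries was 10.3 to 21.9, above sampling noise. Genes were named by rule: the 3 members, the 3 nearest profiles of each, and up to 3 genes with the smallest p per list and direction. Jund, Dusp1, Egr1, Nr1h2, Rxra, Rxrb, Foxp3, Ctla4, Ikzf2, Il2, Tnf, Runx3, Hspa1a, Hspa1b, Zbtb46, Ccr9, Slamf1, Fcer2a, Ms4a1 and Cd3e fall outside the rule and were picked once their values were known. A gene of the nuclear receptor list and a marker gene are not reported here by name. Members and lists were chosen with earlier results of these data known, and the promoter motifs after the counts were examined. Alternatives were RLE scaling, total counts, library sizes from T or B cell markers, DESeq2, limma-voom, non-robust estimation, 2 other filters, the replicate number as a block, and each library left out. Versions were DESeq2 1.42.0, limma 3.58.1, edgeR 4.0.16, matplotlib 3.10.9 and R 4.3.3.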

Additional observations from a re-analysis of the deposited data

How the results depend on the processing

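The rise of each NR4A gene passed under all 16 alternatives run, with log2 fold changes of 3.09 to 3.82 for Nr4a1, 3.04 to 3.77 for Nr4a2 and 2.85 to 3.58 for Nr4a3, and of 3.23 to 3.36, 3.13 to 3.37 and 3.03 to 3.09 when 1 library was left out. The lowest values came from total counts and the highest from library sizes set by T cell markers, which moved the median of all genes by -0.22 and 0.51. Relative to the median of all genes, over all settings, Nr4a1 stood at 3.26 to 3.37, Nr4a2 at 3.15 to 3.39 and Nr4a3 at 3.04 to 3.10. Correlations of deviations from the group means were -0.063, 0.0029 and -0.034 for libraries of the same replicate number. For different numbers they ran from -0.016 to 0.051. They gave no sign of pairing by number, but with 3 libraries per group they cannot show that pairing was absent. With the replicate number as a block the log2 fold changes were 3.31, 3.25 and 3.07, and 3 partners rose in place of 5. Of upstream regulators 4 rose with total counts and 18 with T cell marker sizes, against 7; of partners 1 and 12, against 5, and 3 to 5 when 1 library was left out, with 3 without allograft replicate 1, isograft replicate 1 or isograft replicate 2. The difference in the Nr4a1 to Nr4a2 ratio, 0.06 on the log2 scale, was -0.0203 without allograft replicate 1 and -0.0199 without allograft replicate 2, and ranged from -0.0203 to 0.212. Over all genes 2973 rose and 6093 fell with total counts, and 8062 rose and 1710 fell with T cell marker sizes, against 4283 and 4349. The cause of these shifts was not tested. With 3 libraries per group the exact permutation test of a ratio cannot reach 0.05.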
